A study of Mus musculus with 47 samples.

Results

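Gene expression in mouse small intestine was compared between zeitgeber time 2 (ZT2, counted in hours from lights on) and ZT22, the last time sampled before lights on. Members were taken by their labelled time alone. They were 7 ZT2 and 8 ZT22 libraries, 15 of the 47 libraries of the series. Every animal was a C57BL/6j male, 15 to 16 weeks old, with free access to food. Germ-free (GF) animals are reared without microorganisms, and conventionally raised (convR) animals carry a gut flora. GF ileum (the last part of the small intestine) had 1 library at ZT2 and 2 at ZT22. GF duodenum (the first part), convR ileum and convR duodenum each had 2 at ZT2 and 2 at ZT22. The labels do not say whether replicates, or the duodenum and ileum libraries of equal number, came from separate mice, so p-values measure the spread between these samples, which may be technical. No source used here gives the hours of light. In the usual schedule of equal light and dark, ZT2 is early in the rest phase of the nocturnal mouse and ZT22 is late in its active phase.

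Intestinal cells carry a molecular clock. Arntl (also called Bmal1) and Clock switch on the Per, Cry, Nr1d1, Nr1d2 and Dbp genes. PER and CRY proteins then inhibit Arntl and Clock, while the nuclear receptors NR1D1 and NR1D2 (REV-ERB) bind DNA sites in Arntl and Nfil3 and so repress them. Light reaches this clock through the brain, by way of feeding, body temperature and hormones such as glucocorticoids. In mice food intake and body temperature are high in the dark phase and drop after lights on. Circulating corticosterone is high near the start of the dark phase.

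The depth was 24.5 M counts in the shallowest library, 32.2 M in the median one and 39.3 M in the deepest, and the 2 libraries of a group and time differed beyond counting noise in every group (chi-square per degree of freedom 41.0 to 159 over 7 pairs). Villin (Vil1), of the epithelial brush border, was at 1684 CPM or more in all 15 libraries, where CPM is the library-size-scaled count (counts per M counts with TMM scaling). The ileal bile acid binder Fabp6 was at 615 to 4428 CPM in ileum and at 2.25 CPM or less in duodenum. Some ZT22 libraries stood apart. GF duodenum replicate 2 held 5103 CPM summed over the 5 measured of 13 stomach and Brunner gland markers, with 1053 CPM of Gkn3, against 0.337 to 8.60 CPM at ZT2 and 0.833 to 43.2 CPM in the other ZT22 libraries. The pancreatic trypsinogen Prss2 was at 667 CPM in GF duodenum replicate 1 and 246 CPM in convR duodenum replicate 2, against 93.3 CPM or less at ZT2. GF ileum replicate 2 had the lowest ileal Fabp6. Counts of gene lists were also taken without these 4 libraries, which leaves GF duodenum with no ZT22 library and its change out of the fit. Not among the 4 was convR ileum ZT22 replicate 1, which had 1.15 CPM of Gata4. The other convR ileum libraries had 42.3 to 51.3 CPM of Gata4, GF ileum 14.5 to 63.9 CPM and duodenum 142 to 156 CPM.

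At ZT2, Nr1d1 was higher on average, and Nfil3 and the carboxylesterase Ces1d lower on average, in every tissue and flora status. Such a shared sign was seen in 20.5% of all genes, and Nfil3 was not called by any fit. Libraries of the 2 times overlapped in convR ileum for Nr1d1 and in both ileum groups for Nfil3, and in no group for Ces1d. Genes of mitosis and of the ribosome were lower by small amounts. No gene passed the adjusted threshold of 5% in the planned fit, edgeR's quasi-likelihood test over the 15 libraries with the group as a factor (0 of 19310 genes, 0%). At an unadjusted p under 0.05, 1056 genes were higher (5.47%) and 1226 lower (6.35%). DESeq2 on the same counts called 130 genes (0.673%), 71 higher (0.368%) and 59 lower (0.306%), of which 116 had 1 sign in all 4 groups. A fit of all 47 libraries, which takes the spread from every time of day, called 25 genes (0.119%), 22 higher (0.105%) and 3 lower (0.0143%), and 17 of them were among the 130. A replicate block gave 0 calls, and a block within each group gave 3, all lower. Below, "rose" and "fell" are kept for genes called by the fit that is named, and other genes are given by their values. Every sign was shared by the 4 groups in 3968 genes (20.5%). The ZT2 libraries lay apart from the ZT22 libraries in all 4 groups for 115 higher (0.596%) and 87 lower genes (0.451%).

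Nr1d1, the repressor REV-ERB alpha (chr11:98767932-98775333, minus strand, GRCm38), had the clearest clock change. It was at 26.4 CPM in GF ileum at ZT2, against 2.55 and 10.4 CPM at ZT22. In GF duodenum it was at 77.6 and 65.1 CPM at ZT2 and 4.62 and 3.99 CPM at ZT22. In convR ileum it was at 19.7 and 9.65 CPM at ZT2 and 13.3 and 9.56 CPM at ZT22, and in convR duodenum at 37.7 and 33.8 CPM at ZT2 and 14.9 and 9.52 CPM at ZT22. The 2 times overlapped in convR ileum and lay apart in the other 3 groups. The log2 fold change (ZT2 over ZT22) was 1.93 ± 0.523 (SE) in the planned fit, with an adjusted p of 0.276. Nr1d1 rose by 2.00 ± 0.311 with all 47 libraries (adjusted p = 0.00641, edgeR) and by 1.95 in DESeq2 (adjusted p = 0.022).

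Its paralog Nr1d2 rose by 0.75 in the fit of all 47 libraries (adjusted p = 0.0251, edgeR). It was higher in GF duodenum (72.9 and 85.5 CPM at ZT2, 20.5 and 16.4 CPM at ZT22) and was lower in convR ileum (43.2 and 29.2 CPM at ZT2, 53.1 and 45.0 CPM at ZT22). Dbp, a transcription factor of clock output, followed the same order of groups, with log2 fold changes of 0.50 in GF ileum, 2.63 in GF duodenum, -0.53 in convR ileum and 1.06 in convR duodenum. Of the 4 groups, convR ileum had the lowest log2 fold change for each of Nr1d1, Nr1d2 and Dbp. The difference between the 4 groups was not called for any of them (adjusted p = 1.0, 0.109 and 0.109, edgeR).

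In the clock lists, the planned fit had Nr1d1, Nr1d2 and Dbp as higher at an unadjusted p under 0.05. Nfil3, a repressor of the genes that Dbp activates, was at 9.36 to 17.7 CPM over the 7 ZT2 libraries (median 14.2 CPM) and at 10.2 to 27.7 CPM over the 8 ZT22 libraries, and the 2 times overlapped. Its log2 fold change was negative in all 4 groups (-0.44 ± 0.172 in the planned fit, adjusted p = 0.374). Arntl was lower in duodenum (-0.63 in GF and -0.42 in convR) and slightly higher in ileum (0.08 in GF and 0.19 in convR). Cry1 was lower in GF duodenum (-1.32) and changed sign between groups. Clock, Npas2 and Rora moved little on average (log2 fold changes 0.09, 0.20 and -0.05). Per1 was lower in all 4 groups (-0.51 ± 0.247, adjusted p = 0.441), and Per2 went opposite ways in GF and convR, as described further on.

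**Figure D1:**
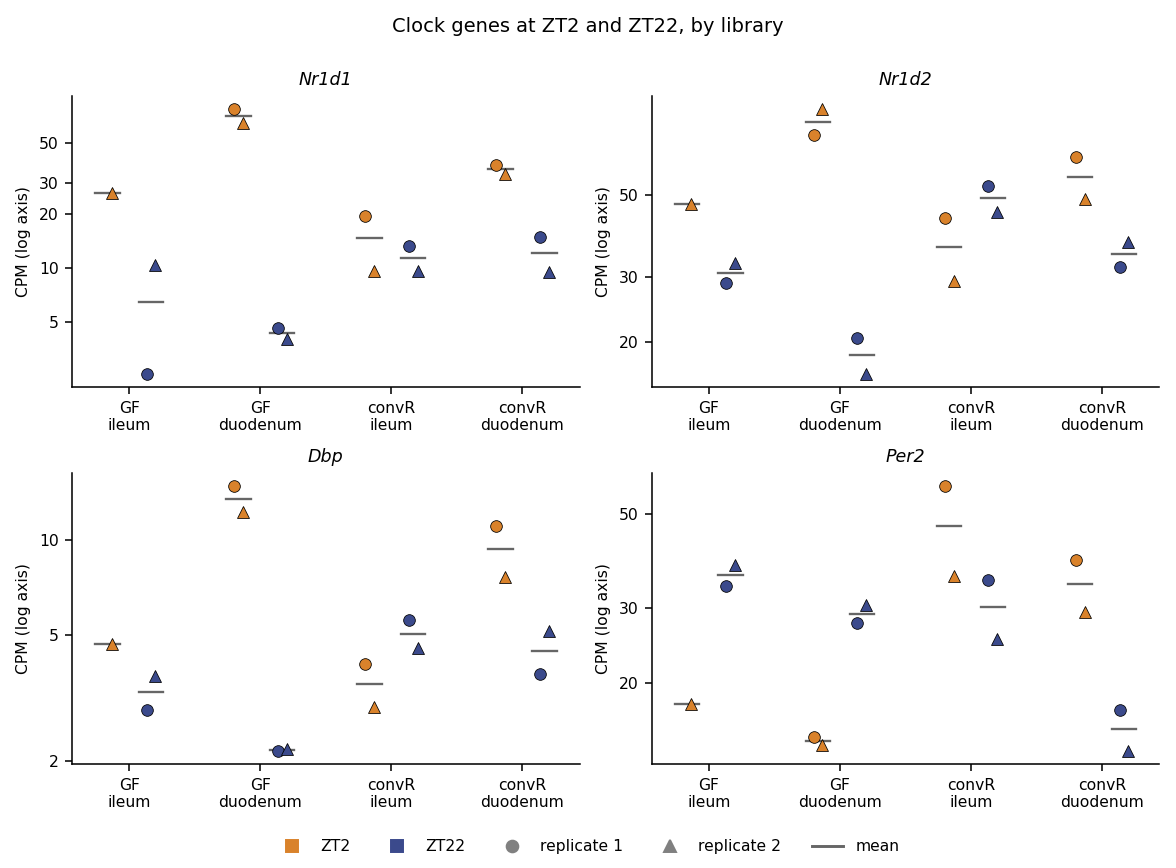
CPM (log axis) of clock genes in each of the 15 libraries, for GF ileum, GF duodenum, convR ileum and convR duodenum, with ZT2 left of ZT22 in each group; 1 point is 1 library. Nr1d1 was at 26.4 to 77.6 CPM in the 3 GF libraries at ZT2 and at 2.55 to 10.4 CPM in the 4 at ZT22, and Dbp was highest in GF duodenum at ZT2, at 14.7 and 12.2 CPM.

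Outside the clock, genes whose libraries did not overlap in any group were chosen for naming after their values were seen, since the naming rule for called genes yielded none. After predicted genes, small RNAs and genes under 2 CPM were set aside, 90 were higher (median log2 fold change 0.24, range 0.08 to 1.09) and 62 were lower (median -0.29, range -11.1 to -0.08). Of the 202 genes that did not overlap, DESeq2 called 64. Ces1d, a carboxylesterase that splits esters of lipids and drugs, fell most clearly, by 0.62 in DESeq2 (adjusted p = 0.000331). In the planned edgeR fit Ces1d stood at -0.62 ± 0.104 (SE), without a call. It was at 20.1 CPM in GF ileum at ZT2, against 40.1 and 43.6 CPM at ZT22, and at 63.6 and 61.5 CPM in GF duodenum at ZT2, against 97.6 and 108 CPM at ZT22. The convR ileum had 10.7 and 13.6 CPM at ZT2 and 15.7 and 14.2 CPM at ZT22, and convR duodenum had 21.1 and 29.1 CPM at ZT2 and 33.1 and 40.9 CPM at ZT22. Ces1d was lower at ZT2 within each group, and in both tissues its GF level at ZT2 was above its convR level at ZT22.

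Among the higher genes, Mavs, the mitochondrial adaptor of antiviral RNA sensing, rose by 0.50 in the fit of all 47 libraries (adjusted p = 0.0372, edgeR). Its level was 57.2 to 110 CPM over the 7 ZT2 libraries (median 72.1 CPM) and 37.5 to 72.0 CPM over the 8 ZT22 libraries. Nlrp1b, a sensor that triggers the inflammasome, rose in DESeq2 (0.41, adjusted p = 0.00861), with changes of 0.44 in GF ileum, 0.27 in GF duodenum, 0.49 in convR ileum and 0.45 in convR duodenum. Pdzk1, a scaffold that holds transporters in the brush border, rose in DESeq2 by 0.45 (adjusted p = 0.022). It was at 298 to 435 CPM at ZT2 (median 387 CPM), against 206 to 423 CPM at ZT22. Syvn1, the ubiquitin ligase that clears misfolded proteins from the endoplasmic reticulum, rose by 0.69 in DESeq2 (adjusted p = 0.0432). The fatty acid hydroxylase Cyp2u1 (1.09), the secreted lectin Reg3a (0.78) and the retinol dehydrogenase family member Rdh9 (0.40) were higher in each group without a call in edgeR or DESeq2. In Cyp2u1 and Reg3a the GF duodenum change was the largest of the 4, at 2.38 and 2.16.

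Among the lower genes, the metallothionein Mt2, which binds zinc, fell by 1.34 in DESeq2 (adjusted p = 0.0227). It was at 2.71 to 9.89 CPM at ZT2 (median 5.18 CPM), against 6.82 to 50.1 CPM at ZT22. Lonrf3, listed among clock output genes, fell by 0.48 in DESeq2 (adjusted p = 0.00861). Cenpw, a protein of the centromere, fell by 0.44 (DESeq2 adjusted p = 0.0227), and Mtus2, a microtubule-binding protein, fell by 0.54 with all 47 libraries (adjusted p = 0.0478, edgeR). Muc6, a mucin of stomach and Brunner glands, was at 0 to 0.128 CPM at ZT2. At ZT22 it was at 862 CPM in GF duodenum replicate 2, the library rich in stomach markers, and at 0.0646 to 3.32 CPM elsewhere. Its log2 fold change of -11.1 in the planned fit therefore rests on that library, and without the 4 libraries that stood apart Muc6 did not pass the filter on low counts.

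**Figure D2:**
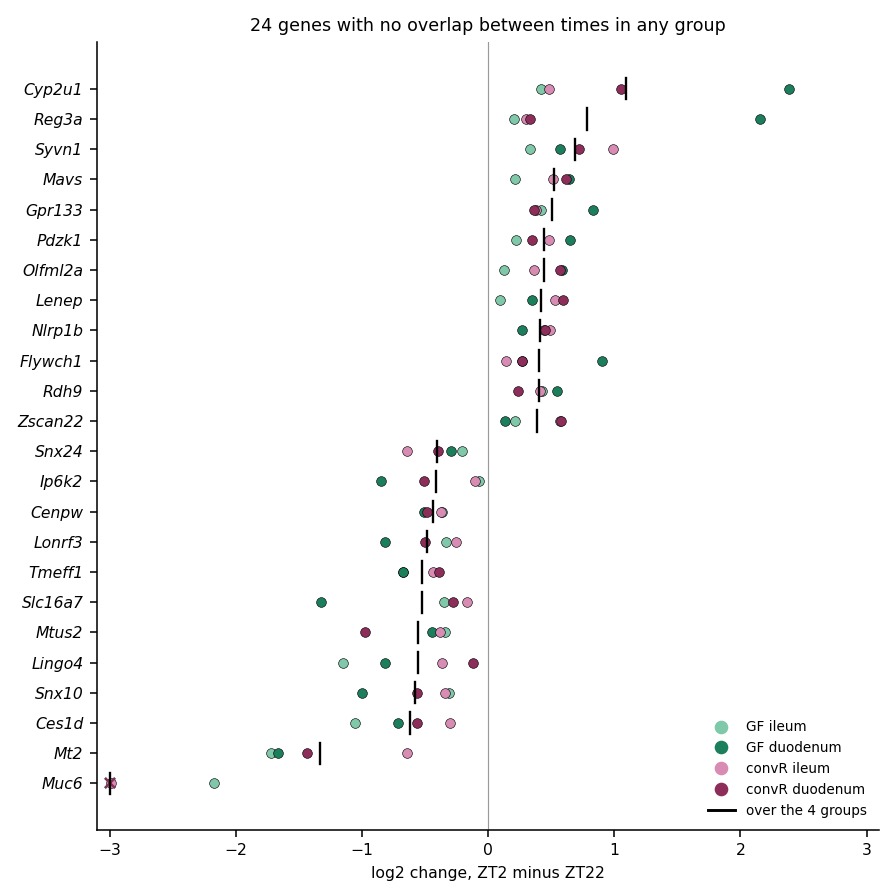
Log2 fold change (ZT2 over ZT22) within each of the 4 groups for 24 genes whose ZT2 and ZT22 libraries did not overlap in any group, the 12 largest per direction. Points are the 4 groups. In both duodenal groups Muc6 lies beyond the axis and is drawn as crosses at its edge. Most higher genes lie between 0.1 and 1 in every group, while Cyp2u1 and Reg3a exceed 2 in GF duodenum.

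G2/M genes, which drive entry into and passage through mitosis, were lower at ZT2. All 25 listed genes had a negative log2 fold change in the planned fit (median -0.28, against -0.01 over all genes), and 20 of the 25 were lower at an unadjusted p under 0.05 (6.35% of all genes), none at the adjusted threshold. The median by group was -0.02 in GF ileum, -0.31 in GF duodenum, -0.40 in convR ileum and -0.33 in convR duodenum. Nusap1, which bundles spindle microtubules, was at 26.7 CPM in GF ileum at ZT2 against 32.3 and 25.2 CPM at ZT22, and at 15.2 and 21.5 CPM in GF duodenum at ZT2 against 23.2 and 23.7 CPM at ZT22. In convR ileum it was at 22.98 and 29.7 CPM at ZT2 and 38.4 and 43.7 CPM at ZT22, and in convR duodenum at 21.8 and 24.2 CPM at ZT2 and 32.2 and 33.9 CPM at ZT22. GF ileum overlapped and the other 3 groups did not. Nusap1 fell in DESeq2 (-0.43, adjusted p = 0.022), as did Ccnb1 (cyclin B1, -0.46, adjusted p = 0.0315). In convR alone 22 of the 25 were lower at an unadjusted p under 0.05 (5.29% of all genes) and in GF alone none was (4.02% of all genes), with medians of -0.17 in GF and -0.36 in convR. The GF minus convR difference was positive at that p for 1 of the 25 and negative for none (negative for 3.15% of all genes). With all 47 libraries that difference was called for none of the 25 (0.0525% of all genes, edgeR). Without the ZT22 libraries that stood apart, the median was -0.32. GF duodenum then adds no change to the fit, and GF ileum has 1 library at each time. The G1/S and DNA replication list was closer to 0, with a median of -0.04 and 3 of 24 genes lower at that p. Stem cell markers, 13 of 13 measured, summed to 773 to 1229 CPM at ZT2 and 923 to 1362 CPM at ZT22. In these bulk samples fewer cells of a type and less RNA per cell cannot be told apart.

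Cytosolic ribosomal protein genes were lower by a smaller amount. Each of the 43 had a negative log2 fold change in the planned fit (median -0.18). That sign held in all 4 groups for 37, where 20.5% of all genes had 1 sign in either direction. At an unadjusted p under 0.05, 27 were lower (6.35% of all genes), with 0 calls in the planned fit and 0 in DESeq2. The median was -0.08 in GF ileum, -0.30 in GF duodenum, -0.14 in convR ileum and -0.21 in convR duodenum. Rpl11, of the large subunit, was at 112 to 173 CPM at ZT2 (median 142 CPM) and at 140 to 195 CPM at ZT22 (log2 fold change -0.25 ± 0.0797). Over all libraries the 2 times overlapped, and within groups only convR duodenum did. That count rested on single libraries. It was 7 without convR duodenum ZT22 replicate 2 or without GF duodenum ZT2 replicate 1, 8 without replicate 1 of convR duodenum or of convR ileum at ZT2, 11 without GF duodenum ZT22 replicate 2 or convR ileum ZT22 replicate 2, and 16 without GF ileum ZT22 replicate 1. Without the ZT22 libraries that stood apart it was 0, with a median of -0.10, and with a replicate block it was 43. Ribosome biogenesis genes had a median of -0.05. At an unadjusted p under 0.05, 1 of the 26 was higher (5.47% of all genes) and 2 were lower (6.35% of all genes).

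**Figure D3:**
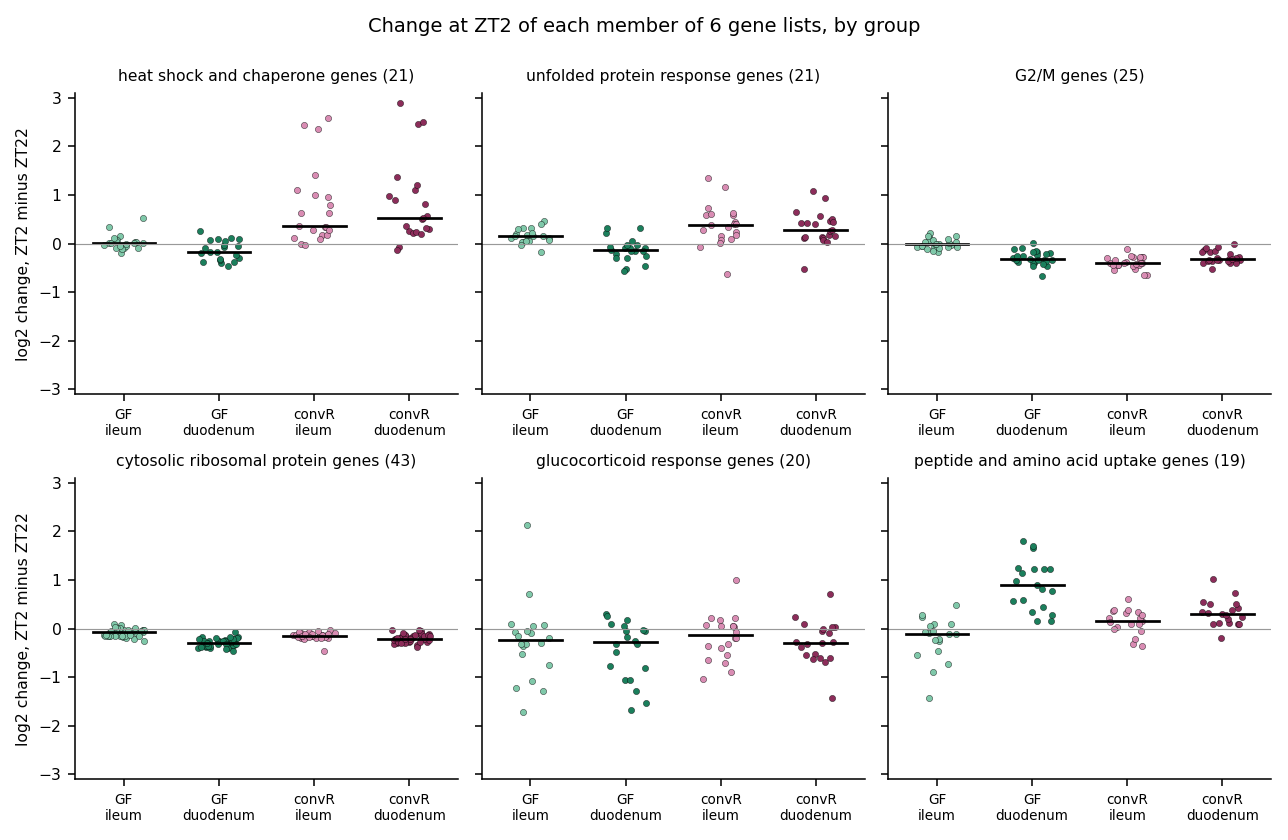
Log2 fold changes (ZT2 over ZT22) of the members of 6 gene lists in GF ileum, GF duodenum, convR ileum and convR duodenum; 1 point is 1 gene and the bar is the list's median. The medians of G2/M and ribosomal protein genes lie below 0 in every group, near it in GF ileum (-0.02 and -0.08). The heat shock median lies above 0 in convR (0.37 in ileum and 0.52 in duodenum). In GF it is 0.01 in ileum and -0.18 in duodenum.

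Genes of hormones and nutrients gave small counts. Of 20 glucocorticoid response genes, 8 were lower at an unadjusted p under 0.05 (6.35% of all genes) and none higher (median -0.24), with 4 lower in the fit of all 47 libraries. They include Fkbp5, a cochaperone of the glucocorticoid receptor (-0.66), and Hsd11b1, the enzyme that regenerates active glucocorticoid (-0.64). Hsd11b1 fell in DESeq2 (adjusted p = 0.0393), and its ZT2 and ZT22 libraries overlapped in convR ileum. Of 24 genes of fatty acid oxidation and PPAR alpha, 6 were lower at that p and none higher (median -0.06). The fatty acid count was 2 with all 47 libraries. It was 3 without either convR duodenum ZT2 library, without GF duodenum ZT2 replicate 2 or without GF duodenum ZT22 replicate 1. Cpt1a, which admits fatty acids to mitochondria, fell in DESeq2 (-0.44, adjusted p = 0.0209). It was at 217 CPM in GF ileum at ZT2 against 237 and 174 CPM at ZT22, and at 147 and 174 CPM in GF duodenum at ZT2 against 232 and 233 CPM at ZT22. ConvR ileum had 138 and 159 CPM at ZT2 and 226 and 220 CPM at ZT22, and convR duodenum had 165 and 171 CPM at ZT2 and 222 and 276 CPM at ZT22. GF ileum overlapped, and the other groups were lower at ZT2. Without the ZT22 libraries that stood apart, the glucocorticoid list had 6 lower genes and a median of -0.32. The fatty acid list then had 3 higher and 3 lower genes, and its median turned to 0.04.

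Genes of peptide digestion and amino acid uptake were higher at ZT2 in duodenum. All 19 had a positive log2 fold change in the planned fit (median 0.33), and 6 were higher at an unadjusted p under 0.05 (5.47% of all genes). The group medians were -0.10 in GF ileum, 0.91 in GF duodenum, 0.15 in convR ileum and 0.31 in convR duodenum. Slc7a7, which passes cationic amino acids out of the cell to the blood, rose in DESeq2 (0.39, adjusted p = 0.0426). It was at 261 and 203 CPM in GF duodenum at ZT2 against 145 and 119 CPM at ZT22, and at 203 and 210 CPM in convR duodenum at ZT2 against 169 and 149 CPM at ZT22. In ileum Slc7a7 was at 193 CPM in GF at ZT2 against 178 and 185 CPM at ZT22, and at 161 and 162 CPM in convR at ZT2 against 143 and 148 CPM at ZT22, so no group overlapped. Without the ZT22 libraries that stood apart, 2 of the 19 genes were higher at that p and the median was 0.12. The count was 1 without either GF duodenum ZT22 library, 2 without convR duodenum ZT2 replicate 2, 3 without convR duodenum ZT22 replicate 2, 10 without GF ileum ZT2 replicate 2 and 11 without GF ileum ZT22 replicate 2. The median was 0.17 without GF duodenum ZT2 replicate 1. Sugar uptake genes gave 2 of 15 higher and none lower (median 0.13).

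Iron, calcium and zinc genes had a median of -0.45 over the 4 groups, with 5 of 18 lower at an unadjusted p under 0.05 (6.35% of all genes). The group medians were 0.10 in GF ileum, -0.87 in GF duodenum, -0.01 in convR ileum and -0.51 in convR duodenum. Without the 4 libraries that stood apart, 3 of 17 were lower and the median was 0.01. The count was also 3 without replicate 1 of convR or GF duodenum at ZT2, convR duodenum ZT22 replicate 2 or GF duodenum ZT22 replicate 1, and 2 without GF duodenum ZT22 replicate 2. The highest levels of Trpv6 and S100g were in 3 duodenal ZT22 libraries. The calcium channel Trpv6 was at 0.135 CPM or less at ZT2. At ZT22 it was at 56.3 CPM in convR duodenum replicate 2, 31.4 and 2.11 CPM in GF duodenum replicates 2 and 1, and 0.072 CPM or less elsewhere. The calcium-binding protein S100g was at 1934, 1072 and 206 CPM in those 3 libraries, against 1.29 to 65.0 CPM at ZT2 and 0.355 to 13.1 CPM in the other ZT22 libraries. Without the libraries that stood apart Trpv6 did not pass the filter on low counts. These 3 are also the duodenal ZT22 libraries with the high Prss2 or stomach marker levels, whose part in the result was not tested.

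Several chaperone genes rose in convR mice, and in GF mice the log2 fold changes of the called ones lay between -0.02 and 0.30. In a fit of the 8 convR libraries alone, chosen after the data were seen, 20 genes were called (0.105%), 15 higher (0.079%) and 5 lower (0.0263%), and 5 of the 15 were of the 21 heat shock genes and 2 of the 21 unfolded protein response genes. A replicate block raised this to 179 genes, and a block for tissues of possibly the same mouse (limma voom) lowered it to 6 (0.0316%). In the GF libraries alone the same edgeR fit called 0 genes (1404 at an unadjusted p under 0.05, 7.42%, and 1 call with limma voom and the same-mouse block, 0.00529%). At an unadjusted p under 0.05, 16 of 21 heat shock genes were higher in convR (4.91% of all genes) and none in GF (3.4% of all genes). For the unfolded protein response list the counts were 14 of 21 in convR and 1 of 21 in GF. The median log2 fold change of heat shock genes was -0.11 in GF and 0.42 in convR, and that of unfolded protein response genes 0.01 in GF and 0.37 in convR. By group, the unfolded protein response median was 0.16 in GF ileum, -0.14 in GF duodenum, 0.38 in convR ileum and 0.27 in convR duodenum. The heat shock median was 0.01 in GF ileum, -0.18 in GF duodenum, 0.37 in convR ileum and 0.52 in convR duodenum. Lymph node and follicle markers, of which 4 of 9 passed the filter on low counts, also had a positive median in convR (1.001, with 2 of 4 higher at an unadjusted p under 0.05) and not in GF (-0.14). Summed over the 4, they were at 13.5 to 35.8 CPM in convR at ZT2 and 4.64 to 34.0 CPM in convR at ZT22, and at 2.57 to 13.1 CPM in GF at ZT2 and 3.32 to 24.2 CPM in GF at ZT22. Their part in the chaperone result was not tested. The heat shock count in convR was 10 without convR ileum ZT2 replicate 1 and 11 without convR duodenum ZT2 replicate 1. The number of convR calls was 2 without convR duodenum ZT2 replicate 1, 4 without convR ileum ZT22 replicate 2, 5 without convR duodenum ZT22 replicate 2, 8 without convR duodenum ZT22 replicate 1, 10 without convR ileum ZT2 replicate 1 and 12 without convR duodenum ZT2 replicate 2.

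Hspa8, the constitutive cytosolic HSP70 that folds new proteins (chr9:40800984-40810087, plus strand), was the most abundant of these genes to be called. It was at 702 CPM in GF ileum at ZT2 against 650 and 734 CPM at ZT22, and at 784 and 747 CPM in GF duodenum at ZT2 against 671 and 911 CPM at ZT22. The convR ileum had 1664 and 1077 CPM at ZT2 and 497 and 527 CPM at ZT22, and convR duodenum had 1670 and 1139 CPM at ZT2 and 450 and 629 CPM at ZT22. The times lay apart in both convR tissues and overlapped in both GF tissues. Hspa8 rose by 1.399 ± 0.184 in convR (adjusted p = 0.0382, edgeR), and the log2 fold change in GF was -0.02 ± 0.12. The difference GF minus convR was -1.41 in the fit of all 47 libraries (adjusted p = 0.0099). Small nucleolar RNA genes of the Snord14 family inside Hspa8 were called with it, and their reads and those of the host transcript cannot be told apart in these counts.

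The stress-inducible Hspa1b, another HSP70, was at 6.60 CPM in GF ileum at ZT2 against 5.24 and 5.20 CPM at ZT22, and at 2.60 and 1.496 CPM in GF duodenum at ZT2 against 1.84 and 2.00 CPM at ZT22. In convR ileum it was at 45.8 and 22.0 CPM at ZT2 and 6.53 and 4.85 CPM at ZT22, and in convR duodenum at 15.6 and 17.6 CPM at ZT2 and 2.02 and 2.46 CPM at ZT22. Hspa1b rose by 2.72 ± 0.241 in convR (adjusted p = 0.00905, edgeR), and its near-identical neighbour Hspa1a rose by 2.47 (adjusted p = 0.0452), with an uncertain split of reads between both. The HSP70 partners Dnaja1 (0.93, adjusted p = 0.00905) and Chordc1, an HSP90 cochaperone (1.15, adjusted p = 0.0151), rose as well. Hsph1, a nucleotide exchange factor of HSP70, had a log2 fold change of 2.401 that missed the threshold (adjusted p = 0.0894). Its level was 233 and 99.3 CPM in convR ileum and 221 and 108 CPM in convR duodenum at ZT2, replicate 1 first, so that replicate 1 was the higher in both tissues. The same order held for Hspa8, Chordc1, Dnaja1 and the unfolded protein response gene Creld2.

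In the endoplasmic reticulum, Hspa5 (BiP, its main HSP70) was at 667 CPM in GF ileum at ZT2 against 527 and 539 CPM at ZT22, and at 430 and 402 CPM in GF duodenum at ZT2 against 413 and 550 CPM at ZT22. ConvR ileum had 1253 and 986 CPM at ZT2 and 467 and 532 CPM at ZT22, and convR duodenum had 907 and 840 CPM at ZT2 and 400 and 505 CPM at ZT22. Hspa5 rose by 1.05 ± 0.129 in convR (adjusted p = 0.0245, edgeR), and the secreted stress protein Manf rose by 0.61 (adjusted p = 0.047). Banp, a DNA-binding protein of CpG-rich promoters, had the smallest adjusted p in convR. It rose by 1.90 ± 0.112 (adjusted p = 0.000367), with 26.5 and 22.6 CPM in convR ileum at ZT2 against 7.47 and 6.47 CPM at ZT22. The transcription factor subunit Nfya rose by 0.67 (adjusted p = 0.016). Falls in convR were called for Arl2bp (-0.54), Usp28 (-0.67), the spindle gene Spag5 (-0.55) and Slc15a2.

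The GF minus convR difference was negative at an unadjusted p under 0.05 for 13 of 21 heat shock and 10 of 21 unfolded protein response genes (3.15% of all genes). With all 47 libraries that difference was called for Hspa8, Chordc1 (-1.14, adjusted p = 0.0181), Banp (-1.64, adjusted p = 0.0351) and Dnaja1 (-0.88, adjusted p = 0.0364), within 11 genes in all (0.0525%), 1 positive (0.00477%) and 10 negative (0.0477%). DESeq2 on the 15 libraries also called it for these 4. The planned fit called none of the 4 (adjusted p = 0.268 for Hspa8, Chordc1 and Dnaja1 and 0.37 for Banp, edgeR), nor did that fit with any of the 15 libraries left out, with a replicate block or without the libraries that stood apart. Over 23 alternatives the call was made in 2 for Hspa8 and Banp and in 3 for Chordc1 and Dnaja1, with a negative value in all 23. Leaving out each convR library or same-numbered pair in turn (12 omissions), Banp kept its convR call in 12, Dnaja1 in 9, Chordc1 and Hspa1b in 6, Hspa5 in 5, Hspa1a and Nfya in 3, Hspa8 in 2 and Manf in 1, each with a positive log2 fold change throughout. Arl2bp, Usp28 and Spag5 lost theirs in all 12, with negative values throughout. Under limma voom with the same-mouse block, Banp, Dnaja1 and Chordc1 kept their calls, and the adjusted p was 0.0575 for Hspa8, 0.0551 for Hspa5 and 0.183 for Hspa1b.

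**Figure D4:**
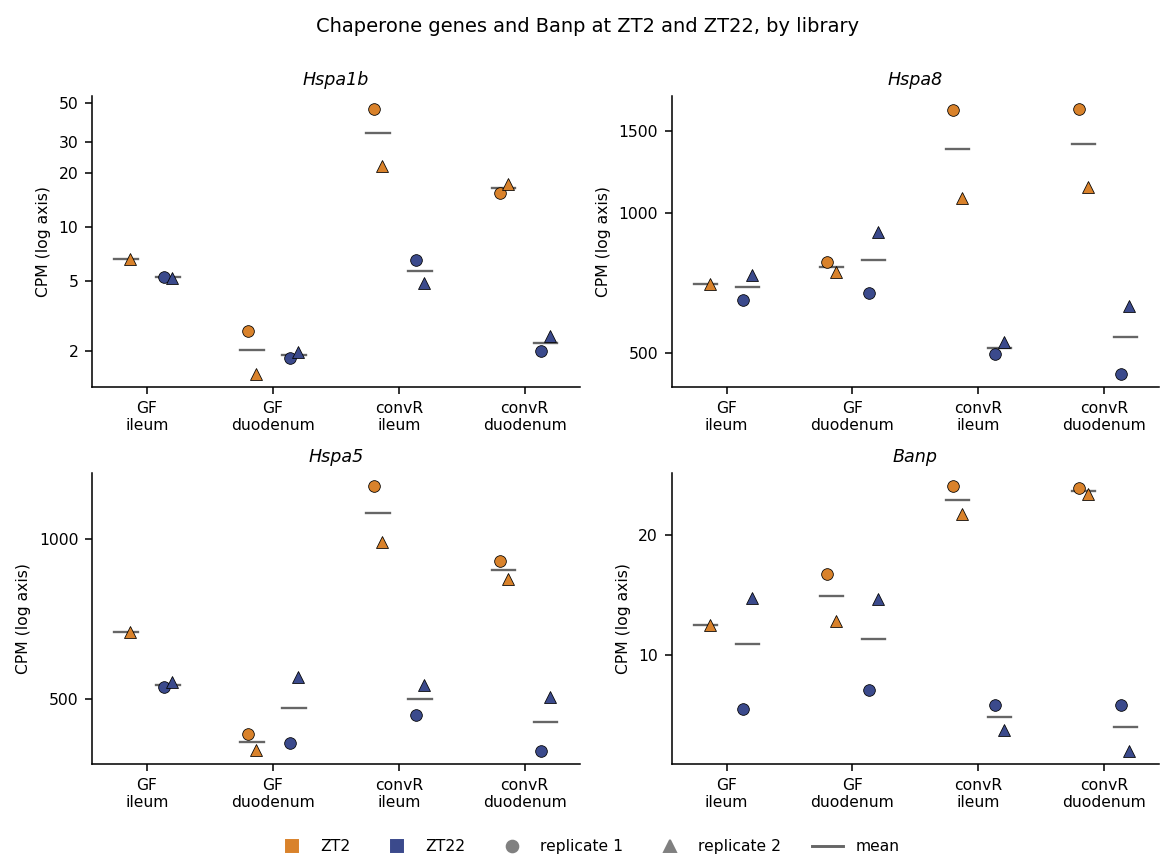
CPM (log axis) of Hspa1b, Hspa8, Hspa5 and Banp in each of the 15 libraries, for GF ileum, GF duodenum, convR ileum and convR duodenum, with ZT2 left of ZT22. In convR every ZT2 library is above every ZT22 library of its tissue, as for Hspa8 at 1077 to 1670 CPM against 450 to 629 CPM, against 702 to 784 CPM and 650 to 911 CPM in GF.

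Promoters of these genes are shown because the convR risers belong to 2 lists with different known regulators. Heat shock factor binds inverted GAA and TTC units, searched here as GAANNTTC or TTCNNGAA, which read the same on both strands. The endoplasmic reticulum stress element was searched on both strands as CCAAT, any 9 bases and CCACG. RefSeq promoters (GRCm38.p6) run from 250 bases before to 50 after the start of transcription. The first motif was in 11 of 17 heat shock genes with a promoter and in 0 of 19 unfolded protein response genes, against 17% of all 27025 genes with a promoter. The second was in 7 of 19 unfolded protein response genes and 0 of 17 heat shock genes, against 0.137% of all genes with a promoter. Among members higher in convR at an unadjusted p under 0.05 (edgeR), 8 of 13 heat shock genes held the first motif. In the same way 4 of 12 unfolded protein response genes held the second, and neither share was above that of its whole list. Creld2, printed below, was not called in the convR fit. A match is a description of letters and not a site in use. Each 80-base stretch below is written 5′ to 3′ on the gene's strand with its motif in capitals. The Hspa1b stretch is chr17:34959279-34959358 (minus strand), Chordc1 is chr9:18292207-18292286 (plus), Dnaja1 is chr4:40722308-40722387 (plus), Hspa5 is chr2:34771980-34772059 (plus) and Creld2 is chr15:88819496-88819575 (plus).
Hspa1b: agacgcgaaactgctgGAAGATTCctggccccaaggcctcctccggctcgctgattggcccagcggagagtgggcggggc
Chordc1: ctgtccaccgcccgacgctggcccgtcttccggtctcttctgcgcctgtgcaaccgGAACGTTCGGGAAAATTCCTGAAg
Dnaja1: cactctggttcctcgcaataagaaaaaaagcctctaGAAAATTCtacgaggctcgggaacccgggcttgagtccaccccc
Hspa5: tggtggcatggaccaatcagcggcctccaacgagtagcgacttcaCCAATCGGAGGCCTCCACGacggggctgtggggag
Creld2: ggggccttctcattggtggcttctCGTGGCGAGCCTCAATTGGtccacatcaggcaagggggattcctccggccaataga

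Slc15a2, a carrier of small peptides (chr16:36750177-36784962, minus strand), went opposite ways in GF and convR. It was at 10.1 CPM in GF ileum at ZT2 against 4.99 and 3.52 CPM at ZT22, and at 24.1 and 16.6 CPM in GF duodenum at ZT2 against 3.28 and 5.54 CPM at ZT22. The convR ileum had 0.306 and 1.06 CPM at ZT2 and 13.2 and 18.7 CPM at ZT22, and convR duodenum had 0.728 and 1.11 CPM at ZT2 and 11.7 and 11.8 CPM at ZT22. No group overlapped, and the direction differed by flora status in both tissues. The GF minus convR difference was 5.82 ± 0.454 on the log2 scale (adjusted p = 0.0025, edgeR, planned fit). In the planned fit 2 of 19310 genes were called for this difference (0.0104%), with 8 under a replicate block, and in the test of all 3 group-by-time terms 1 was (0.00518%, with 690 genes or 3.57% at an unadjusted p under 0.05), and 26 were under the block. Slc15a2 kept its call for the difference without each of the 15 libraries in turn (5.51 to 6.403). Without the ZT22 libraries that stood apart the difference was 5.10, with an adjusted p of 1. The other gene, 1810011O10Rik, had a difference of -1.14 (adjusted p = 0.0498). It was at 98.8 CPM in GF ileum at ZT2 against 129 and 134 CPM at ZT22, and at 171 and 145 CPM in convR ileum at ZT2 against 85.9 and 84.9 CPM at ZT22. Its call was lost in 11 of 15 omissions of 1 library.

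Per2, the clock repressor, also had opposite signs in GF and convR. It was at 17.8 CPM in GF ileum at ZT2 against 33.8 and 38.1 CPM at ZT22, and at 14.9 and 14.2 CPM in GF duodenum at ZT2 against 27.7 and 30.5 CPM at ZT22. In convR ileum it was at 58.3 and 35.8 CPM at ZT2 and 34.9 and 25.4 CPM at ZT22, and in convR duodenum at 39.1 and 29.4 CPM at ZT2 and 17.2 and 13.8 CPM at ZT22. Every GF library at ZT2 was below and every convR library at ZT2 above its own tissue at ZT22. The GF minus convR difference was -1.90 (adjusted p = 0.0699 in the planned fit). It was called with all 47 libraries (-1.90, adjusted p = 0.0287).

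**Figure D5:**
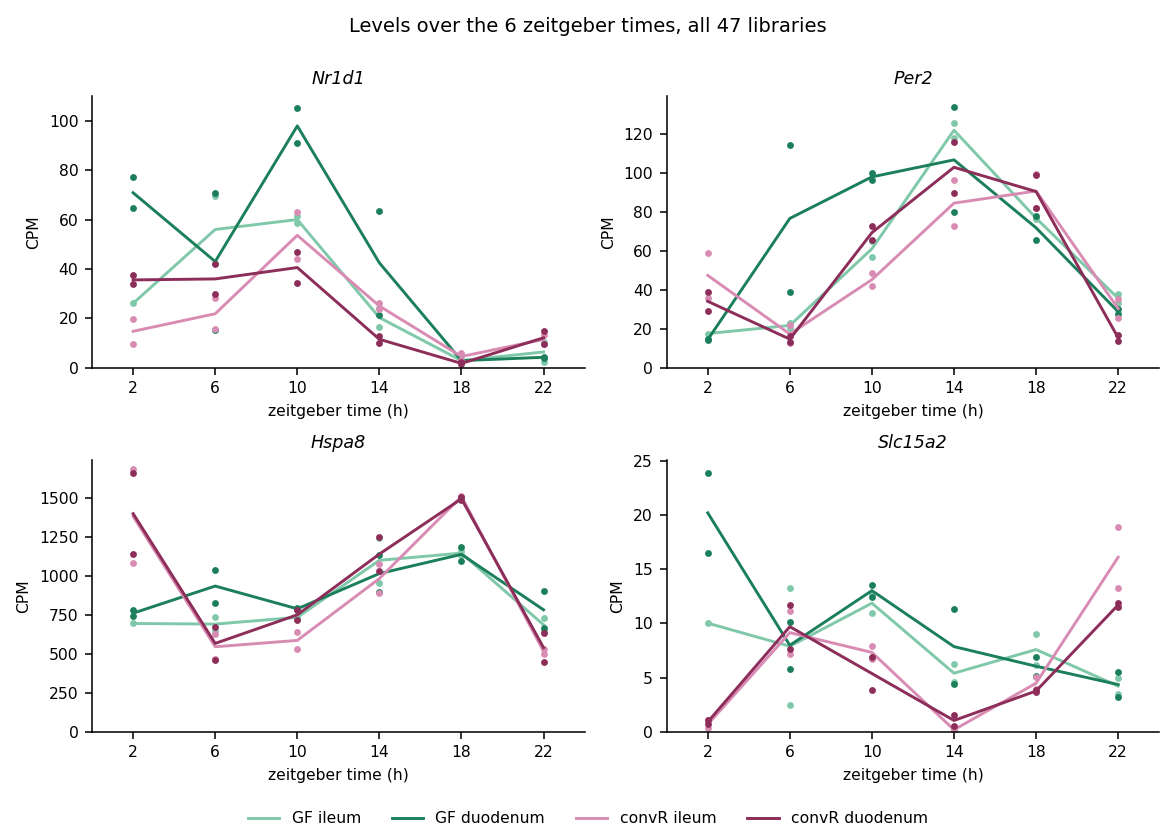
Mean CPM (linear axis from 0) of Nr1d1, Per2, Hspa8 and Slc15a2 at the 6 zeitgeber times in the 4 groups, with points for single libraries. In convR duodenum Hspa8 was at 1398, 566, 750, 1139, 1493 and 539 CPM at ZT2, 6, 10, 14, 18 and 22, and Slc15a2 at 0.913, 9.69, 5.37, 1.04, 3.76 and 11.7 CPM.

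Over the whole day, the 3 times with the highest Hspa8 in convR duodenum were those with the lowest Slc15a2. Hspa8 was at 1398 CPM at ZT2, 1139 at ZT14 and 1493 at ZT18 in convR duodenum, the times at which Slc15a2 was at 0.913, 1.04 and 3.76 CPM. In GF duodenum Hspa8 was between 760 and 1137 CPM over the 6 times, and in GF ileum between 686 and 1145 CPM. In GF it was also highest at ZT14 and ZT18, at 1014 and 1137 CPM in duodenum and 1099 and 1145 CPM in ileum. At ZT2 it was at 760 CPM in GF duodenum and 694 CPM in GF ileum. Per2 was lowest in GF at ZT2, at 17.6 CPM in ileum and 14.4 CPM in duodenum, and lowest in convR at ZT6, at 17.3 CPM in ileum and 14.7 CPM in duodenum. These are means of 2 libraries (1 in GF ileum at ZT2) and the order over the day was not tested.

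Between tissues, the ZT2 against ZT22 change was not called different for any gene by edgeR in the planned fit (0 genes, 632 at an unadjusted p under 0.05, 3.27%), with 17 calls under a replicate block and 6 in DESeq2. With all 47 libraries it was again 0 (705 at that p, 3.36%). Within duodenum alone edgeR called 0 genes (1947 at that p, 10.4%), with 15 under the block and 137 in DESeq2. Without convR duodenum ZT22 replicate 1 the duodenal count was 208. Within ileum alone edgeR called 0 genes with and without the block (633 at that p, 3.34%), and DESeq2 called 10.

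The lights-on step was also set against the lights-off step, ZT14 against ZT10, in a fit of all 47 libraries. The steps share no library. Their difference was called for 16 genes (0.0763%), 9 positive (0.0429%) and 7 negative (0.0334%), and for 81 under a replicate block. Nr1d1 (difference 3.42 on the log2 scale, adjusted p = 0.000608, edgeR) and Nr1d2 (1.07, adjusted p = 0.0257) were higher across lights-on than across lights-off. In convR duodenum, for example, Nr1d1 was at 35.6 CPM at ZT2 against 12.2 CPM at ZT22, and at 11.6 CPM at ZT14 against 40.6 CPM at ZT10. Lonrf3 had the opposite sign (-0.96, adjusted p = 0.00783). The receptor tyrosine kinase Epha1 (0.64, adjusted p = 0.00783) and Wwc1, a regulator of the Hippo pathway (0.58, adjusted p = 0.0124), were higher across lights-on. Both also rose at ZT2 against ZT22 in the fit of all 47 libraries (0.37, adjusted p = 0.0334 for Epha1, and 0.36, adjusted p = 0.0313 for Wwc1). Without each of the 15 libraries in turn, Nr1d1, Epha1, Lonrf3 and Wwc1 kept this call, and Nr1d2 lost it in 6 omissions. The count of 16 was 6 without GF duodenum ZT2 replicate 2 or GF ileum ZT22 replicate 1, 7 without replicate 2 of convR or GF duodenum at ZT22, 8 without replicate 2 of convR duodenum, convR ileum or GF ileum at ZT2, and 9 without replicate 1 of GF duodenum or convR ileum at ZT2. The lights-off step by itself gave 91 calls (0.434%), against 25 for lights-on, in the same fit.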

How the data were processed

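RNA from duodenum and ileum was sequenced after ribosomal depletion with a stranded total RNA kit, per the labels' protocols. Reads were aligned with STAR 2.4.0i to mm10, per the submitters' processing notes. The counting program, its annotation and its use of strand are each not stated in any source used here. The authors deposited raw exon counts for 38087 genes, which were used as deposited, and 36308 IDs matched GENCODE M21, whose GRCm38 coordinates are printed. Counts were filtered with filterByExpr (minimum count 10), scaled by TMM and tested with edgeR 4.0.16 (quasi-likelihood, R 4.3.3) with group and time as factors and Benjamini-Hochberg adjustment at 0.05. limma 3.58.1 and DESeq2 1.42.0 served as alternatives. CPM values use TMM library sizes.

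Genes were to be named where called with 1 sign in the 4 groups, which yielded none. The 12 largest changes per direction among genes that did not overlap, the 3 smallest p-values per list and the convR genes were named after their values were seen. Members and lists were chosen with earlier results of these data known. Same-numbered ZT2 and ZT22 libraries of a group deviated together (correlations 0.218, 0.152 and 0.252), so the replicate block is given where it moved a count. Same-numbered GF and convR libraries, which are of different mice, correlated at 0.377 in ileum at ZT22. In duodenum they correlated at 0.0765 (ZT2) and -0.0492 (ZT22). Same-numbered duodenum and ileum libraries correlated at 0.561 (ZT2) and 0.241 (ZT22) in convR and at 0.0553 (ZT22) in GF. The edgeR fits of convR and of all 47 libraries treat these as independent, and limma voom with a same-mouse block does not (consensus correlation 0.363 in convR). The scripts were tested on simulated data. Some items of the gene lists are not reported here.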

Additional observations from a re-analysis of the deposited data

Results flagged for a closer look

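The ZT2 against ZT22 change differed between GF and convR for Slc15a2, by 5.82 on the log2 scale (adjusted p = 0.0025, edgeR), and it differed over the 3 group-by-time terms (unadjusted p = 1.2e-06, adjusted p = 0.0231). The direction of each group held in 7 of 7 ZT2 libraries. For 1810011O10Rik the difference between GF and convR was -1.14 (adjusted p = 0.0498, edgeR).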

How the results depend on the processing

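The planned fit gave 0 shared calls with each of the 15 libraries left out, and 5 with no filter on low counts, 130 in DESeq2, 3 with a replicate block by group, 25 with all 47 libraries and 20 with convR alone. Calls of 1 sign in the 4 groups numbered 4 with no filter, 116 in DESeq2, 1 with the block by group and 13 with all 47 libraries. The test of the 4 groups gave 24 with no filter, 52 in DESeq2, 26 with the replicate block and 0 to 5 with 1 library left out. GF minus convR gave 1 with median-of-ratios scaling, library size only or a filter at 50 counts, 15 with no filter, 45 in DESeq2, 8 with the block, 11 with all 47 libraries, 0 without the libraries that stood apart and 1 to 6 with 1 library left out. Ileum minus duodenum gave 3 with no filter, 6 in DESeq2, 17 with the block and 0 to 1 with 1 left out. Duodenum gave 47 with no filter, 137 in DESeq2, 15 with the block and 0 to 208 with 1 left out, and ileum gave 10 in DESeq2. ConvR gave 47 with no filter, 228 in DESeq2, 179 with the block, 52 with the block by group, 6 with voom, 123 with all 47 libraries, 5 without the library that stood apart, 2 to 18 with 1 left out and 19 to 57 with a same-numbered pair left out. The step difference gave 897 with no filter, 102 in DESeq2, 81 with the block and 6 to 21 with 1 left out. Genes that did not overlap numbered 246 to 680 with 1 left out, 2207 without the libraries that stood apart and 673 without GF ileum, since fewer libraries overlap less.

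Signs turned in clock genes whose change over the 4 groups the planned fit did not call, and in Slc15a2, which was at 1.83 in GF alone. Per2 was at -0.0565 with all 47 libraries, -1.002 in GF alone and -0.11 to 0.28 with 1 library left out. Tef was at -0.0168 with all 47 libraries, -0.52 in ileum, -0.11 in convR, -0.19 without the libraries that stood apart and -0.10 to 0.15 with 1 left out. Hlf was at 0.0502 with voom, 0.27 in duodenum, 0.25 in convR, 0.16 without GF ileum and -0.20 to 0.15 with 1 left out. Per3 was at -0.51 in ileum, -0.0427 in convR, -0.25 without the libraries that stood apart and -0.001 to 0.25 with 1 left out. Cry1 was at 0.10 in ileum, 0.10 in convR and 0.0199 without the libraries that stood apart. Bhlhe40 was at 0.16 in ileum, 0.23 in convR and 0.19 without those libraries. In ileum Arntl was at 0.15 and Dbp at -0.11, and in duodenum Npas2 was at -0.0055. The cause was not tested.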
